A study of Danio rerio with 4 samples.

Results

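The genes described here are those of DNA replication and of the supply of its nucleotides, followed in sorted zebrafish cells. Members were the rows whose symbol in the files matches the names of the origin recognition, MCM, GINS, primase, DNA polymerase alpha, delta and epsilon, sliding clamp, clamp loader and RPA subunits, of the origin-firing and licensing regulators, and of the enzymes of deoxynucleotide synthesis. The pattern found 45 of 14417 genes, chosen by name and not by level. Of these, 43 had a mean of at least 1 FPKM over the libraries and entered the comparisons, among 11971 such genes in all. FPKM is the number of sequenced fragments scaled to transcript length and to the mapped fragments of the library. The members below that floor were mcm3l and mcm6l, paralogues of the helicase genes mcm3 and mcm6, which stood between 0.0957 and 1.35 FPKM in every library.

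All libraries came from embryos of the gata1:GFP line, in which green fluorescent protein marks cells with an active gata1 promoter, that of a transcription factor of red cell precursors. Gata1+ cells were sorted at 24 and 48 hours post fertilization (hpf). Control embryos had received a standard morpholino oligonucleotide (MO) at the 1-cell stage, and foxo3b MO embryos, called morphant below, an MO against the FOXO transcription factor gene foxo3b. With 1 library in each of the 4 groups there is no replicate error to set a difference against. No test was made, and each difference below describes these libraries. The labels do not say how many embryos each sort drew on.

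Total FPKM ran from 1505450 to 2402300 per library, and ribosomal protein genes took 31.2% to 55.1% of it. Read counts are not among the values, and absolute depth is unknown. Steps among low FPKM values put the depth of the other libraries at 0.497 to 0.717 of that of control at 24 hpf. At these depths 41.7% to 45.6% of the low genes lay on a step. The median over all depths tried was 3.45% to 4.60%. The depths are therefore estimates. Transcripts of red cells were present but so were those of other tissues: gata1a, the gene behind the reporter, lay between 2.49 and 8.23 FPKM, the embryonic globin gene hbae3 between 928 and 11506 FPKM, and the epidermal keratin gene krt4 between 8263 and 10879 FPKM. The mRNA of foxo3b was not lower in the libraries labelled foxo3b MO. Morphant libraries held 46.5 FPKM at 24 hpf and 50.3 FPKM at 48 hpf, and control libraries 6.40 and 38.1 FPKM.

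DNA replication starts from origins bound by the origin recognition complex, on which the MCM helicase is loaded in G1 with the help of Cdc6 and Cdt1, while geminin blocks reloading in the same cycle. In S phase the Cdc7 kinase, Mcm10, Cdc45 and GINS turn the loaded helicase into an active fork. There polymerase alpha with primase lays down primers, the RFC complex loads the PCNA clamp, and polymerases delta and epsilon copy the strands while RPA covers single-stranded DNA. Ribonucleotide reductase, thymidylate synthase, dihydrofolate reductase and thymidine kinase supply the deoxynucleotides. Most of these genes are transcribed toward S phase under E2F factors, so their mRNA is commonly read as a sign of cycling cells. Primitive red cells of the embryo still divide in circulation before they mature and leave the cycle.

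Members were widely expressed in every library. The sliding clamp gene pcna was the most abundant member in each of the 4 libraries and alone made up 18.6% of the summed FPKM of the replication genes in control and 19.7% in morphant cells at 24 hpf, and 22.1% and 25.2% at 48 hpf. Ranked by level, the members kept a similar order across libraries, with a Spearman correlation with control at 24 hpf of 0.979 for the morphant library at 24 hpf and 0.883 for each library at 48 hpf. After pcna, the most abundant members were rpa3 in the control library at 24 hpf, rrm1 in the control library at 48 hpf, and rrm2 in both morphant libraries. Lowest were the thymidine kinase gene tk1 in both libraries at 24 hpf, pole in control and mcm10 in morphant cells at 48 hpf.

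**Figure D1:**
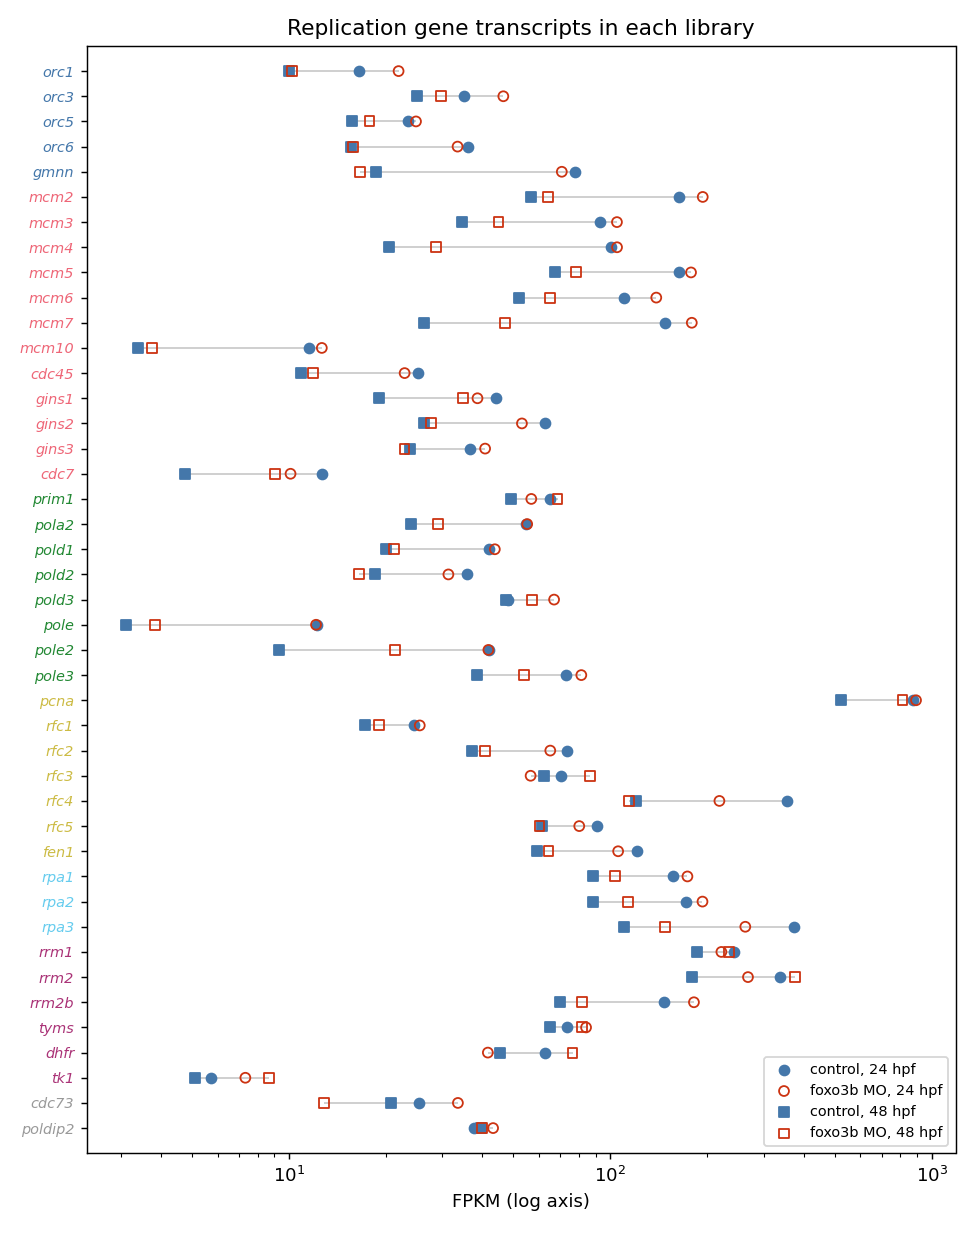
FPKM (log axis) of the 43 replication genes past the floor in each of the 4 libraries, with a line from the lowest to the highest value filled blue symbols for control, open red ones for foxo3b MO, and gene names coloured by role (blue origin licensing, pink helicase, green polymerases, yellow clamp, loader and flap nuclease, light blue RPA, purple nucleotide supply, grey other function). Circles (24 hpf) lie right of squares (48 hpf) for most genes, and pcna stands apart at 521 to 894 FPKM.

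The first question was how these genes differed between 24 and 48 hpf in control cells. Replication genes were lower at the later stage almost throughout: 42 of 43 had a lower value at 48 hpf, and 21 of 43 were at least 2-fold lower, against 8.75% of all genes. None was at least 2-fold higher, a size that 21.0% of all genes reached. The count of 2-fold lower members ran from 15 to 29 with the setting, and that of all genes from 643 to 1960. The median log2 fold of the members, computed as log2 of FPKM plus 1, was -0.97, and that of all genes was 0.18. The member that was higher at 48 hpf, poldip2, encodes a polymerase delta interacting protein with functions outside replication. Its log2 fold of 0.07 turned negative under median-ratio scaling, and 58.8% of all genes were higher by any size. In bulk libraries, fewer cycling cells and less of these mRNAs in each cell cannot be told apart.

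The same comparison in morphant cells gave a smaller shift. There 14 of 43 members were at least 2-fold lower at 48 hpf, against 11.5% of all genes, and none was at least 2-fold higher, against 15.7%. The median log2 fold was -0.81, beside -0.03 for all genes. Here 6 members stood above their 24 hpf value, namely prim1, rfc3, rrm1, rrm2, dhfr and tk1, where 48.8% of all genes did. The value of rrm1 turned to -0.16 with equal totals without ribosomal genes. The comparisons in control and in morphants use separate libraries, and 12 members were at least 2-fold lower in both, which is 57.1% of the control list and 85.7% of the morphant list. Over all genes the shared ones were 64.3% of the control list and 48.9% of the morphant list. Those 12 were orc6, gmnn, mcm2, mcm3, mcm4, mcm5, mcm6, mcm7, mcm10, pold1, pole and rrm2b.

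**Figure D2:**
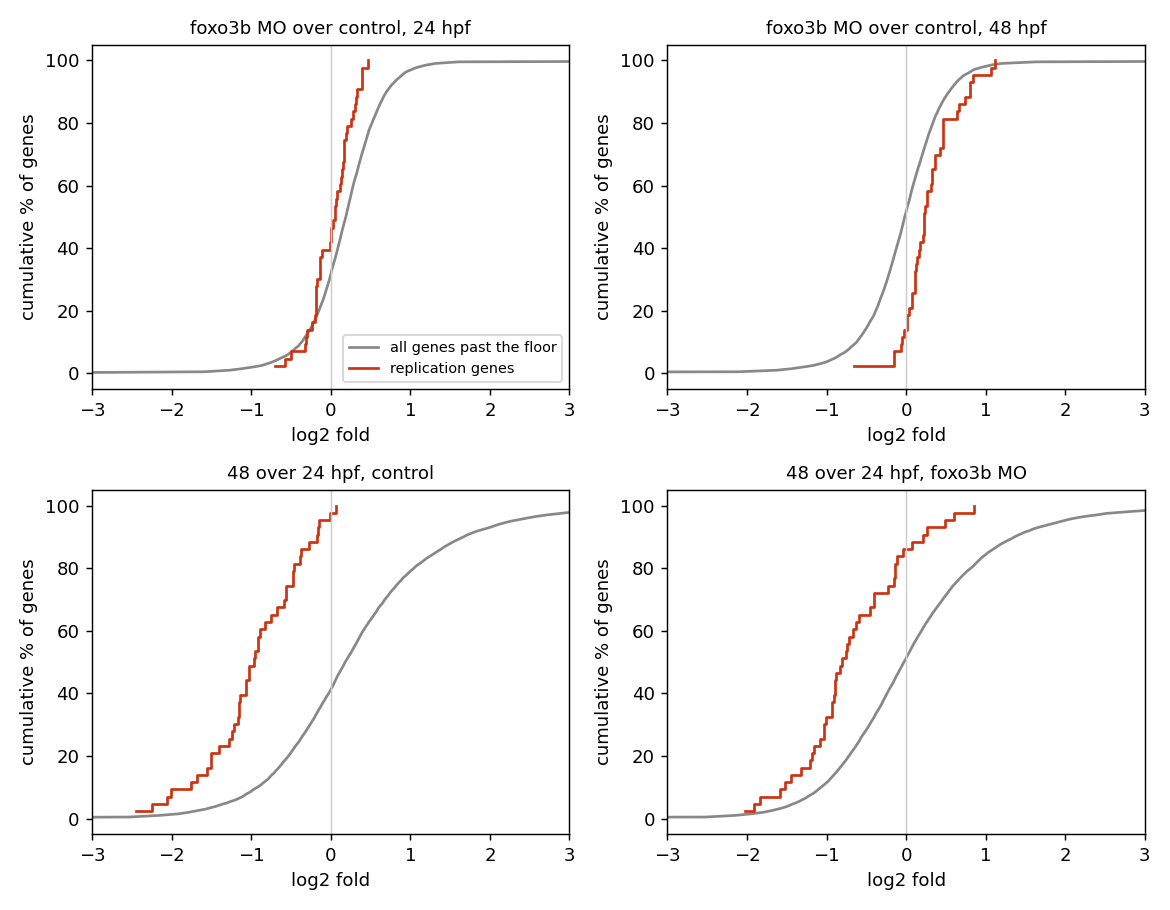
Cumulative percentage of genes (vertical axis) against log2 fold (horizontal axis) in the 4 comparisons, for the 43 replication genes (red) and all 11971 genes past the floor (grey). The red curve lies left of the grey one in both comparisons of stages (medians -0.97 and -0.81) and right of it for morphant over control at 48 hpf (median 0.23).

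Among origin licensing genes, geminin had the largest difference between stages. The geminin gene gmnn had 78.0 and 70.7 FPKM in the control and morphant libraries at 24 hpf and 18.7 and 16.6 FPKM at 48 hpf, log2 folds of -2.01 and -2.02. Both 24 hpf libraries thus stood well above the 48 hpf ones, by ratios of 4.18 in control and 4.25 in morphants. Subunits of the origin recognition complex differed less: orc3, orc5 and orc1 had log2 folds between stages of -0.47, -0.56 and -0.67 in control, and orc6, which is needed for helicase loading, one of -1.16. In morphant cells the same genes had -0.63, -0.46, -1.03 and -1.03. The large subunit gene orc1 went from 16.5 and 22.0 FPKM at 24 hpf to 9.98 and 10.2 FPKM at 48 hpf, in control and morphant libraries in that order. The row of orc6 shares its locus with the neighbouring row mylk3, so its value is less certain.

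The MCM helicase genes were lower at 48 hpf as a group. Every subunit gene from mcm2 to mcm7 was at least 2-fold lower at 48 hpf in control and in morphant cells. Of all genes 8.75% were 2-fold lower in control and 11.5% in morphants. The subunit log2 folds ran from -2.44 to -1.07 in control and from -1.91 to -1.09 in morphants. Summed over the 6 subunits, control held 780 FPKM at 24 hpf and 257 FPKM at 48 hpf, and morphant cells 901 and 328 FPKM. Within the complex the subunits lay further apart at 48 hpf.

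At 24 hpf the subunit values in control lay between 93.1 and 164 FPKM, a range of 1.76-fold, and at 48 hpf between 20.5 and 67.2 FPKM, a range of 3.28-fold. The 2 genes that set the lower end were mcm4 and mcm7. The gene mcm7 stood at 148 FPKM (control) and 179 FPKM (morphant) at 24 hpf, then 26.4 and 46.9 FPKM at 48 hpf. For mcm4 the same 4 values were 101, 105, 20.5 and 28.6 FPKM. The most abundant subunit at 48 hpf, mcm5, had 164 and 178 FPKM at 24 hpf and 67.2 and 78.3 FPKM at 48 hpf. The ratio of mcm7 to mcm5 inside a library, which no rescaling of a library can alter, was 0.903 and 1.01 at 24 hpf and 0.393 and 0.599 at 48 hpf. In Zv9 coordinates as the files give them, mcm7 lies on chromosome 14 at 201290 to 212779, and its locus also carries the microRNA rows mir19d, mir25 and mir93. The row of mcm2 lies on the unplaced scaffold Zv9_NA237.

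Genes that activate the helicase were also lower at 48 hpf in control. The log2 folds were -1.51 for mcm10, -1.25 for cdc7, -1.22 for gins2, -1.17 for gins1, -1.14 for cdc45 and -0.59 for gins3. In morphant cells mcm10 had -1.53, but gins1 and cdc7 had -0.15 each. The kinase gene cdc7 stood at 12.7 (control) and 10.1 FPKM (morphant) at 24 hpf, then 4.77 and 9.06 FPKM at 48 hpf. For gins1 the values were 44.2 and 38.6 FPKM, then 19.0 and 34.8 FPKM. In both genes the control library at 48 hpf was the low one and the other 3 libraries lay near each other. The partner subunit gins2 did not share this: it had 62.8 and 53.1 FPKM at 24 hpf and 26.4 and 27.8 FPKM at 48 hpf. The ratio of gins1 to gins2 was 0.704, 0.727 and 0.722 in the first 3 libraries (both at 24 hpf, and control at 48 hpf) and 1.25 in the morphant library at 48 hpf.

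Among polymerase genes, those of epsilon differed most between stages in control. The catalytic subunit gene pole went from 12.2 FPKM in both libraries at 24 hpf to 3.12 FPKM in control and 3.83 FPKM in morphant cells at 48 hpf. The accessory subunit gene pole2 stood at 41.9 (control) and 41.8 FPKM (morphant) at 24 hpf, then 9.32 and 21.5 FPKM at 48 hpf. Both pole2 libraries at 24 hpf were thus alike, while at 48 hpf the morphant value was 2.30 times the control value. The locus given for pole2 on chromosome 17, 731 to 3744, begins near the end of the assembled chromosome. The histone-fold subunit gene pole3 differed less between stages, with log2 folds of -0.89 in control and -0.59 in morphants.

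Polymerase delta genes pold1, catalytic, and pold2, accessory, had log2 folds between stages from -1.02 to -0.88 in the 2 conditions. The third subunit gene, pold3, did not follow them: it had 47.9 and 66.9 FPKM at 24 hpf and 47.4 and 57.1 FPKM at 48 hpf, in control and morphant order. The ratio of pold3 to pold1 was 1.14 and 1.53 at 24 hpf and 2.36 and 2.69 at 48 hpf. The members from polymerase alpha and primase, pola2 and prim1, also diverged. The polymerase alpha subunit gene pola2 had log2 folds of -1.16 and -0.89 between stages, and the primase gene prim1 -0.39 and 0.27. The values of prim1 were 64.9 and 56.8 FPKM at 24 hpf, then 49.3 and 68.6 FPKM at 48 hpf.

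The sliding clamp gene pcna stood at 875 (control) and 894 FPKM (morphant) at 24 hpf, then 521 and 812 FPKM at 48 hpf. Control at 48 hpf was the low library. The flap endonuclease gene fen1, grouped here with the clamp, had 122 and 106 FPKM at 24 hpf and 59.2 and 64.2 FPKM at 48 hpf. Both 48 hpf libraries were thus low. Of the clamp loader genes, rfc2 had log2 folds between stages of -0.97 in control and -0.67 in morphants, rfc5 -0.57 and -0.40, and rfc1 -0.48 and -0.40. The loader gene rfc3 had 70.5 and 56.5 FPKM at 24 hpf and 62.4 and 86.4 FPKM at 48 hpf, log2 folds of -0.17 and 0.60.

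The highest loader values were those of rfc4, at 355 and 219 FPKM at 24 hpf and 120 and 114 FPKM at 48 hpf. That row shares a locus of 746915 bases on chromosome 11 with 17 other rows, tk1 among them, so both values are uncertain. The row of rfc5 also shares its locus with another row.

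The RPA genes encode the single-strand binding trimer and were all lower at 48 hpf in both conditions. Of all genes 58.8% were higher at 48 hpf in control and 48.8% in morphants. The large and middle subunit genes rpa1 and rpa2 kept close values, with log2 folds between stages of -0.82 and -0.95 in control and -0.75 and -0.76 in morphants. The small subunit gene rpa3 stood at 373 and 263 FPKM at 24 hpf, then 110 and 148 FPKM at 48 hpf. It was thus the one RPA gene with its highest value in control at 24 hpf. The ratio of rpa3 to rpa1 was 2.37 in that library and between 1.24 and 1.51 in the other 3.

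Genes of nucleotide supply had the median log2 fold of smallest size between stages among the replication roles. Over 6 genes it was -0.42 in control and 0.15 in morphants. The single genes were spread in morphants, from -1.15 for rrm2b to 0.86 for dhfr. Of the 6 genes, 4 were higher at 48 hpf in morphants, beside 48.8% of all genes. Those were dhfr, rrm1 and the rows rrm2 and tk1, whose shared loci make their values uncertain. The rrm1 fold of 0.08 turned negative with equal totals without ribosomal genes. In control all 6 were lower, by a log2 fold of -1.06 at most, for rrm2b, where 58.8% of all genes were higher. The thymidylate synthase gene tyms had 73.2 and 84.1 FPKM at 24 hpf and 65.1 and 81.9 FPKM at 48 hpf. Its partner in the folate cycle, the dihydrofolate reductase gene dhfr, had 62.5 and 41.6 FPKM at 24 hpf and 45.3 and 76.3 FPKM at 48 hpf. The order of control and morphant in dhfr was therefore opposite at the 2 stages. The salvage gene tk1 had 5.75 and 7.32 FPKM at 24 hpf and 5.10 and 8.66 FPKM at 48 hpf, at the shared locus described above.

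Ribonucleotide reductase joins the large subunit of rrm1 to a small subunit, in mammals from RRM2, the S phase form, or RRM2B, a form that p53 induces. Which gene the row named rrm2 measures is not certain, since the GRCz12tu table gives rrm2 as an older name of both rrm2b and rrm2l, and it is called by its name in the files. The gene rrm1 had 243 and 222 FPKM at 24 hpf and 187 and 234 FPKM at 48 hpf. For rrm2 the values were 338 and 268 FPKM, then 179 and 376 FPKM, so its lowest and its highest library were both at 48 hpf. The third gene, rrm2b, had 147 and 182 FPKM at 24 hpf and 69.7 and 81.5 FPKM at 48 hpf. The ratio of the row rrm2 to the row rrm2b was 2.30 in control and 1.47 in morphant cells at 24 hpf, and 2.57 and 4.61 at 48 hpf. The ubiquitin ligase gene mdm2, a p53 target, stood at 28.6 and 159 FPKM at 24 hpf, then 32.5 and 52.2 FPKM at 48 hpf. The row of rrm2 spans 954159 bases of chromosome 19 with 23 other rows, and its values are uncertain, whereas rrm2b has a locus of its own on chromosome 19 at 34293594 to 34303934.

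**Figure D3:**
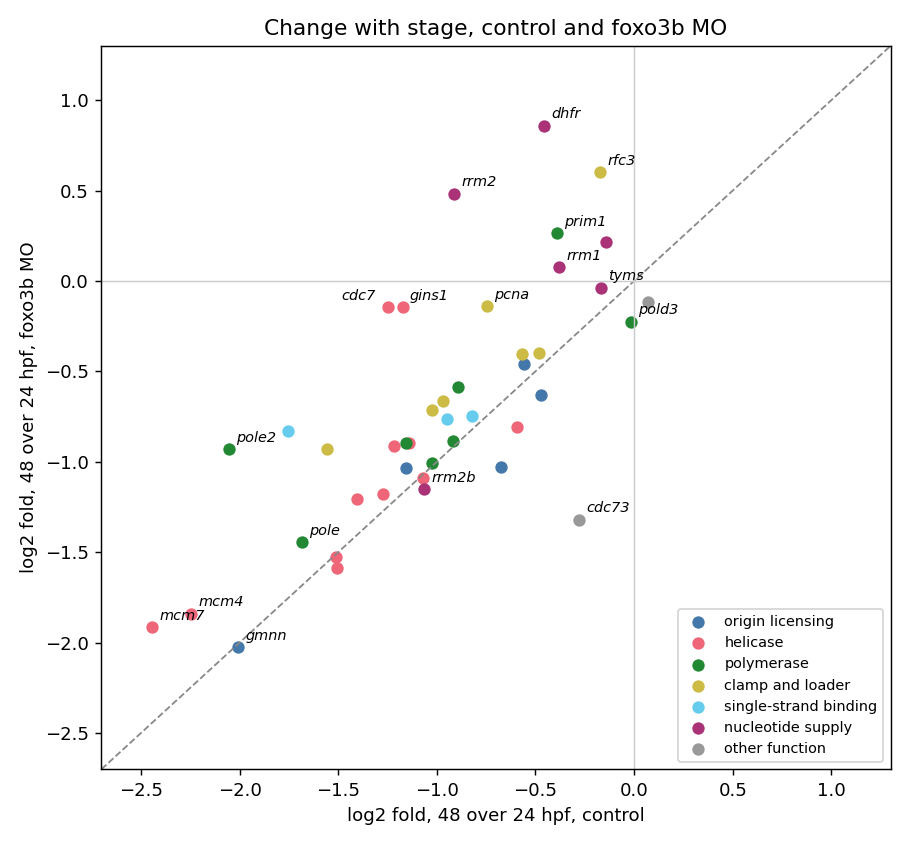
Log2 fold of 48 over 24 hpf in control (horizontal) and in foxo3b MO (vertical) for the 43 replication genes, coloured by role, with the line of equal folds dashed. The genes mcm7, mcm4 and gmnn lie at the lower left, and dhfr, rfc3, rrm2, prim1, tk1 and rrm1 lie above 0 in foxo3b MO and below 0 in control.

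Across the 43 genes the log2 folds between stages in control and in morphants, which come from separate libraries, had a Pearson correlation of 0.73 and a Spearman correlation of 0.73. Over all 11971 genes the same values were 0.80 and 0.79. Genes are not independent replicates, and each fold carries the depth and scale of its own libraries.

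The make-up of the replication transcripts also differed between stages. Helicase genes took 20.6% of the summed FPKM of the replication genes in control and 23.7% in morphant cells at 24 hpf, and 14.7% and 13.6% at 48 hpf. Nucleotide supply genes took 18.4% and 17.7% at 24 hpf and 23.4% and 26.6% at 48 hpf. Clamp, loader and flap nuclease genes went from 34.2% and 31.8% to 37.2% in both libraries. These shares are ratios inside a library. At 48 hpf the uncertain row rrm2 held 179 of the 551 FPKM of nucleotide supply in control and 376 of 858 FPKM in morphants. The clamp and loader share includes the uncertain row rfc4. As a share of total FPKM the whole set stood at 0.209% (control) and 0.293% (morphant) at 24 hpf, and at 0.101% and 0.217% at 48 hpf. With ribosomal protein genes left out of the total, the shares were 0.465%, 0.526%, 0.180% and 0.316% in the same order.

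**Figure D4:**
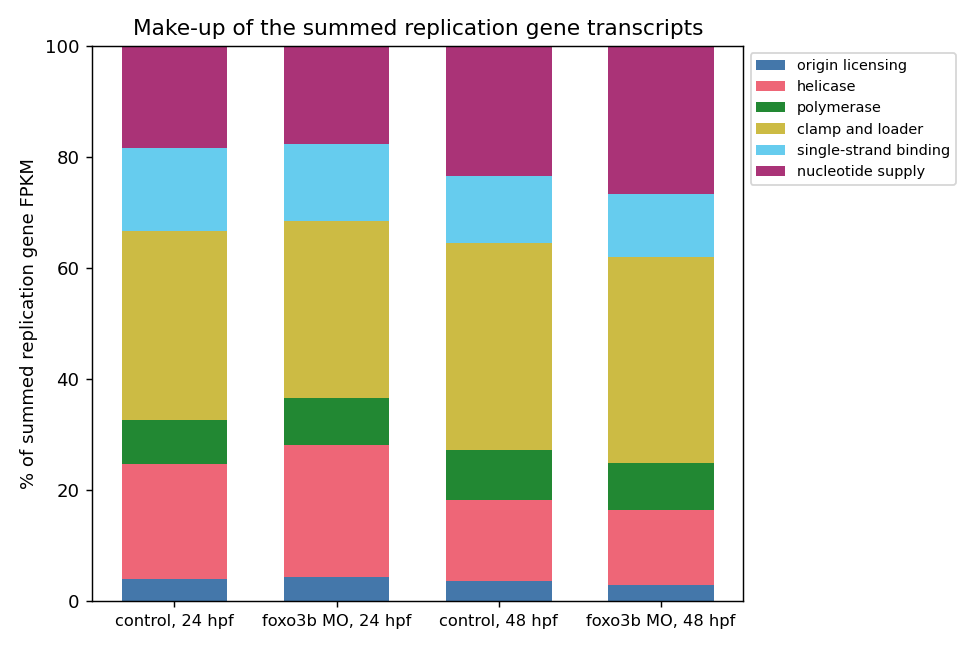
Share of the summed FPKM of the replication genes (vertical axis, %) taken by each role in each library, without cdc73 and poldip2. Between 24 and 48 hpf the helicase share is smaller (20.6% and 23.7%, then 14.7% and 13.6%) and the nucleotide supply share larger (18.4% and 17.7%, then 23.4% and 26.6%). Nucleotide supply includes the uncertain row rrm2, and the clamp and loader role the uncertain row rfc4.

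The next question was how the genes differed between morphant and control cells at each stage. At 24 hpf they hardly did. None of the 43 members was at least 2-fold higher, against 3.12% of all genes, and none at least 2-fold lower, against 1.94%. At a threshold of 1.5-fold none was higher, against 15.9%, and 1 was lower, rfc4 at its shared locus, against 5.37%. By any size, 24 of 43 were higher in morphants, a share of 55.8% beside 68.2% of all genes. The median log2 fold was 0.06 for the members and 0.19 for all genes. The sign of the members' median depends on the scale: it was -0.17 after median-ratio scaling and 0.58 with equal totals. The members' median minus that of all genes was -0.16 to -0.08 under the rescalings tried.

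Within the set at 24 hpf, every gene from mcm2 to mcm7 was higher in the morphant library, by log2 folds of 0.06 to 0.33. So were orc1 and orc3 (0.39 each) and pold3 (0.47), and 68.2% of all genes. The median of all genes was 0.19, with mcm3 (0.17), mcm5 (0.12) and mcm4 (0.06) below it and mcm2, mcm6 and mcm7 above. Median-ratio scaling gave mcm3, mcm4 and mcm5 a negative sign, and centring by expression and locus width did so for mcm4 and mcm5. The lowest log2 folds were those of rfc4 (-0.70), dhfr (-0.58) and rpa3 (-0.50), of which rpa3 turned to 0.03 with equal totals. Damage response genes, a list that holds mdm2, differed far more at this stage, with 10 of 18 at least 2-fold higher, none lower and a median log2 fold of 1.40. Over all genes 3.12% were 2-fold higher. The most abundant gene of that list, the cyclin gene ccng1, had 348 and 2311 FPKM at 24 hpf and 666 and 1433 FPKM at 48 hpf. At 24 hpf the caspase gene casp8 had 4.56 and 56.4 FPKM and phlda3 6.94 and 63.5 FPKM, in control and morphant order. The cell death gene pmaip1 had a value above 0 in 1 library, 285 FPKM in morphants at 24 hpf, and the remaining libraries list it at 0. Among the members, rrm2b, whose mammalian counterpart p53 induces, had a log2 fold of 0.31.

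At 48 hpf most members were higher in the morphant library. By any size 37 of 43 were higher, a share of 86.0% beside 48.3% of all genes, and the median log2 fold was 0.23 beside -0.02. The sizes were modest. At least 2-fold higher were 2 genes, pole2 and rrm2, a share of 4.65% against 1.92% of all genes, and none was 2-fold lower, against 3.67%. At 1.5-fold, a threshold set after the values were seen, 8 were higher, which is 18.6% against 8.47% of all genes. They were pole2 (log2 fold 1.12), rrm2 (1.06), gins1 (0.84), mcm7 (0.81), cdc7 (0.80), dhfr (0.74), tk1 (0.66) and pcna (0.64). Of these, rrm2, tk1 and mcm7 share their loci with other rows. The pole2 fold became 0.94 after centring by expression and locus width and 0.89 with a pseudocount of 5 FPKM. The count of 2-fold higher genes depends on the scale and the setting, from 1 to 15. The members' median minus that of all genes was 0.21 to 0.29 under the rescalings tried.

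The 1 member at least 1.5-fold lower at 48 hpf, against 11.3% of all genes, was cdc73. Its name matches the pattern, but its product is a part of the Paf1 transcription elongation complex. It had 25.4 and 33.6 FPKM at 24 hpf and 20.7 and 12.9 FPKM at 48 hpf, so morphant cells at 48 hpf were the low library. By role, medians at 48 hpf were 0.49 for nucleotide supply (6 of 6 genes higher) and 0.36 for RPA (3 of 3). They were 0.27 for genes of the helicase and its activators (11 of 12) and for polymerase genes (7 of 8). For clamp and loader genes the median was 0.13 (5 of 7), and for origin licensing genes 0.03 (4 of 5). Of all genes 48.3% were higher by any size. Nucleotide supply includes the uncertain rows rrm2 and tk1, and the clamp and loader role the uncertain row rfc4. The origin licensing gene below 0 was gmnn (-0.16), and the others were gins3 (-0.06), pold2 (-0.15), rfc4 (-0.07) and rfc5 (-0.02). All 5 were above 0 with equal totals.

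**Figure D5:**
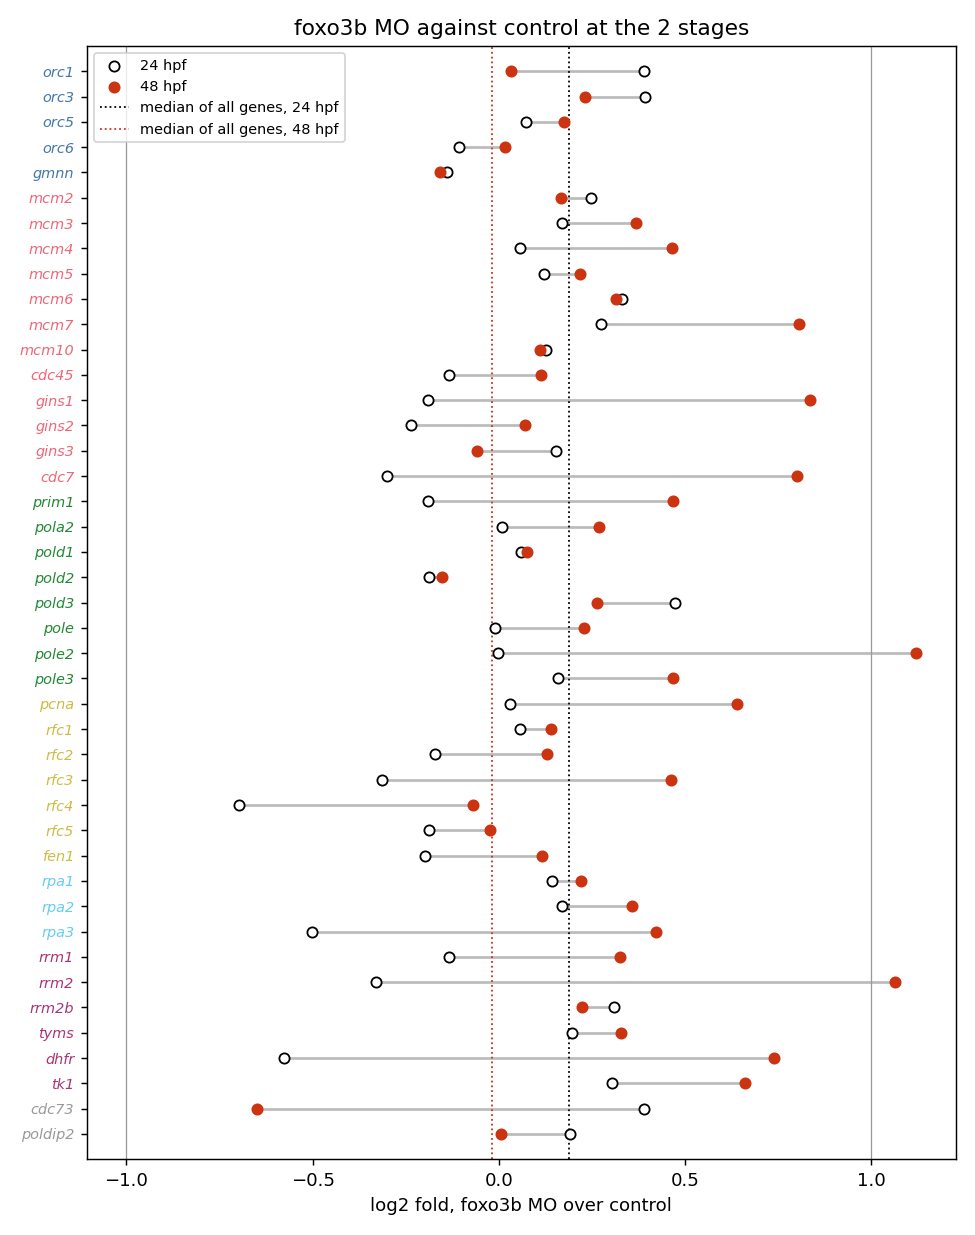
Log2 fold of foxo3b MO over control (horizontal axis) for each of the 43 replication genes at 24 hpf (open) and 48 hpf (filled), with dotted lines at the medians of all genes (0.19 and -0.02) and grey lines at 2-fold. At 48 hpf pole2 and rrm2 lie past 2-fold, and cdc73 lies lowest at -0.65.

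The log2 fold at 48 hpf minus that at 24 hpf was above 0 in 32 of 43 members (74.4%, beside 35.5% of all genes), with a median of 0.20 beside -0.20. It was at least 1 for 5 members (rrm2, dhfr, pole2, cdc7 and gins1), while 2.95% of all genes reached that. Between stages the morphant log2 folds of the members had a Pearson correlation of -0.18 and a Spearman correlation of -0.09, over 43 genes, and 0.14 by both measures over all genes.

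Genes outside the symbol pattern were set beside the members. Another 7 rows carry a clone or database name in the files and are known today under replication names. Of these zgc:174506 (cdc6), which loads the helicase, had 39.1 and 44.0 FPKM at 24 hpf and 17.0 FPKM in both libraries at 48 hpf. The ligase row si:dkeyp-35b8.5 (lig1), which joins Okazaki fragments, had 74.9 and 73.1 FPKM, then 31.2 and 51.7 FPKM. The GINS row zgc:100817 (gins4) had 31.5 and 22.2 FPKM, then 14.0 and 21.7 FPKM. Like gins1, gins4 was therefore low in the control library at 48 hpf.

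The largest morphant difference among the 7 was in si:dkey-28b4.7 (pold4), the smallest polymerase delta subunit, at 222 and 75.9 FPKM at 24 hpf and 174 and 112 FPKM at 48 hpf. At 24 hpf its log2 fold was -1.53, past 2-fold, where 1.94% of all genes were 2-fold lower. No member of the symbol pattern passed 2-fold at that stage. The primase partner zgc:110727 (prim2) was higher at 48 hpf than at 24 hpf, with 40.4 and 46.0 FPKM, then 56.4 and 94.7 FPKM. In morphants its log2 fold between stages was 1.03, past 2-fold, where 15.7% of all genes and no member were 2-fold higher. The origin rows zgc:153041 (orc2) and zgc:85772 (orc4) had log2 folds between stages of -1.86 and -0.74 in control, and of -1.40 and -0.18 in morphants. Over the 7 rows the median between stages was -1.11 in control and -0.18 in morphants, beside 0.18 and -0.03 for all genes. For morphant over control their median was -0.04 at 24 hpf and 0.60 at 48 hpf, beside 0.19 and -0.02 for all genes. The row of orc2 lies in the shared locus of rfc4.

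Replication accessory genes (fork, nuclease and chromatin assembly factors) were lower at 48 hpf too. In control 12 of 32 were at least 2-fold lower and none higher, with a median log2 fold of -0.89, and in morphants 12 were lower and none higher, with a median of -0.70. For these lists the shares of all genes are those given above, 8.75% lower and 21.0% higher in control, and 11.5% and 15.7% in morphants. The morphant medians were 0.13 at 24 hpf and 0.24 at 48 hpf, and 1 gene passed 2-fold, chaf1b, a subunit of the chromatin assembly factor that works with PCNA, at 5.12 and 11.5 FPKM at 48 hpf. The topoisomerase row top1l was the most abundant of this list, at 140 and 143 FPKM at 24 hpf and 122 and 155 FPKM at 48 hpf. Of 18 checkpoint genes 5 were 2-fold lower between stages in each condition, with medians of -0.81 and -0.63. None of them was 2-fold apart between morphant and control. Beside both lists, 3.12% of all genes were 2-fold higher and 1.94% lower at 24 hpf, and 1.92% and 3.67% at 48 hpf. The most abundant, parp1, had 89.2 and 99.9 FPKM at 24 hpf and 50.5 and 45.4 FPKM at 48 hpf.

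Genes of the step into S phase were mixed. Of 31, 10 were at least 2-fold lower and 3 higher at 48 hpf in control, with a median of -0.51, and 11 and 3 in morphants, with a median of -0.59. All genes gave 8.75% lower and 21.0% higher in control, and 11.5% and 15.7% in morphants. At 24 hpf the morphant library was 2-fold higher for 3 of these genes, against 3.12% of all genes: the cyclin gene ccnd2a (62.0 against 27.6 FPKM), the kinase row si:ch211-234f14.1 (cdk6, 7.23 against 1.87 FPKM) and the cyclin kinase inhibitor row cdkn1bl (25.5 against 11.7 FPKM). At 48 hpf none was, against 1.92% of all genes. The cyclin D1 gene ccnd1, the most abundant, had 123 and 141 FPKM at 24 hpf and 206 and 350 FPKM at 48 hpf. It was thus higher at the later stage, unlike most members.

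Mitotic genes gave values near those of the replication genes. Among 21 G2 and M phase genes, the 48 hpf control library was at least 2-fold lower for 9 and higher for none, with a median of -0.95, and in morphants 8 were lower and none higher, with a median of -0.76. Of all genes 8.75% were lower and 21.0% higher in control, and 11.5% and 15.7% in morphants. Between morphant and control none passed 2-fold, and the medians were 0.01 at 24 hpf and 0.16 at 48 hpf. Of all genes 3.12% were 2-fold higher and 1.94% lower at 24 hpf, and 1.92% and 3.67% at 48 hpf. The ubiquitin-conjugating row zgc:123190 (ube2c) was the most abundant, at 329 and 254 FPKM at 24 hpf and 156 and 151 FPKM at 48 hpf. The 7 repair and translesion polymerase genes had medians of 0.00 and -0.08 between stages. The most abundant of them, polb, had 47.6 and 45.7 FPKM at 24 hpf and 78.5 and 67.0 FPKM at 48 hpf. The translesion row si:dkey-57a22.7 (rev1) had 4.41 and 11.7 FPKM at 24 hpf and 6.51 and 4.33 FPKM at 48 hpf.

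Cell type markers differed in the same comparisons. Red cell markers summed to 15388 FPKM in control and 3691 FPKM in morphant cells at 24 hpf, and to 25856 and 9830 FPKM at 48 hpf. Globin rows made up most of these sums. Of 10 markers, 6 were at least 2-fold higher and 2 lower at 48 hpf in control, against 21.0% and 8.75% of all genes. Between stages in morphants 7 were higher and 0 lower, against 15.7% and 11.5%. Against control, 7 were at least 2-fold lower in morphants at 24 hpf, where 1.94% of all genes were. At 48 hpf 4 were, all of them globin rows, against 3.67% of all genes. By any size 3 were higher in morphants at 48 hpf, where 48.3% of all genes were. These were gata1a (log2 fold 0.61), klfd (klf1, 0.17) and slc4a1a (0.01). The beta globin gene hbbe3 had 9075 and 1815 FPKM at 24 hpf, then 2340 and 2207 FPKM at 48 hpf. For hbbe2 these were 172, 56.5, 697 and 170 FPKM. The rows hbbe1.1 and hbae1, which share their loci with other rows, had log2 folds of morphant over control of -2.21 and -1.97 at 24 hpf and of -1.84 and -1.44 at 48 hpf. Neural progenitor markers, of another dividing tissue, summed to 488 and 425 FPKM at 24 hpf and to 303 and 414 FPKM at 48 hpf. Of these 7 markers 5 were higher in morphants than in control at 48 hpf, where 48.3% of all genes were, and 1 at 24 hpf, where 68.2% were. The most abundant, sox3, had 216 and 165 FPKM at 24 hpf and 57.2 and 103 FPKM at 48 hpf, and 4 of the 7 were higher at 48 than at 24 hpf in each condition, near the shares of all genes (58.8% in control and 48.8% in morphants). No marker of either list was at 0 in any library. Their part in the replication gene differences was not tested.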

How the data were processed

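RNA was extracted with TRIzol from sorted Gata1+ cells and sequenced from standard Illumina libraries, per the labels' protocols. The authors deposited FPKM per gene, made with TopHat and Cufflinks on Zv9 per the submitters' processing notes. Their versions, options and gene models: not given in the sources used here. FPKM keeps no counts, so the depth behind a value is unknown and low genes are the least precise. Groups came from the labels. Members, companion lists and alternatives were chosen with earlier results of these data known. All members are named, and of each companion list the most abundant gene and up to 4 genes at least 2-fold apart between morphant and control. Log2 folds used FPKM plus 1 over genes whose mean reached 1 FPKM, with Python 3.11.15, numpy 2.4.6 and pandas 2.3.3, and the code was tested on simulated data. A gene was counted as higher or lower at 2-fold or more. Current symbols came from a table of the GRCz12tu assembly, which matched 14188 genes, and coordinates are those of the files. Of the members, 38 had a locus of their own and 7 shared one with other rows. The 10 alternatives changed the pseudocount, the floor, the scale, or the rows used.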

Additional observations from a re-analysis of the deposited data

Results flagged for a closer look

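For 4 members the difference between morphant and control had opposite directions at 24 and 48 hpf, each at least 1.25-fold, with 1 library per group, and the difference between stages was not tested. That is 9.30% of the members, near the 8.87% of all genes that met the same rule, so it is no feature of the members. For rrm2 the log2 fold was -0.33 at 24 hpf and 1.06 at 48 hpf, a difference of 1.39. For dhfr it was -0.58 and 0.74, a difference of 1.32. For rpa3 it was -0.50 and 0.42, a difference of 0.92. For cdc73 the order was the other way, 0.39 and -0.65, a difference of -1.04. The direction at 24 hpf depends on the scale for 2 of them: with equal totals rrm2 had 0.21 and rpa3 0.03, while dhfr had -0.05. At 48 hpf equal totals moved the median of all genes by 0.61, near the size of the cdc73 fold of -0.65. The size of the cdc73 difference at 48 hpf therefore depends on the scale as well.

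Seen along the other axis, the same numbers place rrm2 and dhfr lower at 48 than at 24 hpf in control and higher in morphants. The log2 folds were -0.91 and 0.48 for rrm2, a difference of 1.39, and -0.46 and 0.86 for dhfr, a difference of 1.32. These differences equal those above by arithmetic and are no second observation, and they too were not tested. These 2 members are 4.65% of the set, beside 3.99% of all genes. The rrm2 row shares its locus with 23 other rows, and its name stands for more than 1 gene in the GRCz12tu table.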

How the results depend on the processing

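No paired analysis was possible because each group has 1 library. Of 120 recomputed summary values 104 stayed within the limits set for a change, 14 moved and 2 reversed. Those 104 include counts of 0 that stayed 0, and counts that still differed. The 21 genes at least 2-fold lower between stages in control became 15 with a pseudocount of 5 FPKM. They became 29 with equal totals without ribosomal genes. Of 363 recomputed 2-fold calls of single members 342 stayed past 2-fold, 21 did not and 0 reversed. For morphant over control at 24 hpf the median of 0.06 became -0.17 with median-ratio scaling, -0.10 after centring by expression and locus width, 0.58 with equal totals and 0.28 with equal totals without ribosomal genes, and 1 gene became 2-fold higher with equal totals. At 48 hpf the median of 0.23 became 0.89 with equal totals and 0.59 without ribosomal genes, and the 2 genes at least 2-fold higher became 15 and 7 under these, and 1 with a pseudocount of 5 FPKM, after centring, or without shared loci. Between stages the control median of -0.97 became -1.21 with median-ratio scaling and -1.35 with equal totals without ribosomal genes, where the morphant median became -1.04 and the count of 2-fold lower genes 22. Equal totals moved the median of all genes by 0.46 at 24 hpf and 0.61 at 48 hpf between morphant and control, and turned the 373 higher and 232 lower of all genes at 24 hpf into 2332 and 83, and the 230 and 439 at 48 hpf into 2005 and 140; median-ratio scaling gave 188 and 372 at 24 hpf. Between stages, equal totals without ribosomal genes turned 2509 higher and 1047 lower of all genes in control into 1777 and 1960, and 1882 and 1376 in morphants into 1532 and 2162. The cause was not tested.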

Other observations

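Beyond the members, a mixed list of 45 genes of nucleotide metabolism past the floor was compared between stages. It joined purine, pyrimidine and folate synthesis genes with salvage, nucleotide kinase, thioredoxin and further deoxynucleotide genes such as dut, dctd and dtymk. Its medians therefore stand for no single pathway. In control 10 were at least 2-fold lower and 9 higher at 48 hpf, with a median log2 fold of -0.05, and in morphants 11 and 9, with a median of -0.29. Of all genes 8.75% were lower and 21.0% higher in control, and 11.5% and 15.7% in morphants. Between morphant and control the medians were 0.16 at 24 hpf and 0.15 at 48 hpf.

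The examples that follow were chosen after their values were seen, except gart, txn, nme2a and nme2b.1. The pyrimidine gene cad, which encodes the first enzymes of that pathway, had 126 and 168 FPKM in control and morphant cells at 24 hpf and 17.6 and 23.8 FPKM at 48 hpf. The purine gene gart had 130 and 137 FPKM, then 21.8 and 48.7 FPKM, and was 2-fold higher in morphants at 48 hpf. The dUTPase gene dut, which keeps uracil out of DNA, had 423 and 347 FPKM, then 158 and 223 FPKM. The salvage kinase gene dck had 7.73 and 5.18 FPKM at 24 hpf and 16.9 and 12.2 FPKM at 48 hpf, while the salvage kinase gene uck2b had log2 folds between stages of -0.81 in control and -1.23 in morphants. Other genes of de novo purine synthesis were mixed between stages in control. Log2 folds lay near 0 for paics (-0.07), adsl (0.16) and atic (0.19). They were lower for ppat (-0.71) and si:dkey-183n20.16 (pfas, -2.02).

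The thioredoxin gene txn, a reductant of ribonucleotide reductase, had 574 and 377 FPKM at 24 hpf and 467 and 946 FPKM at 48 hpf, so morphant cells at 48 hpf were the high library. The kinase gene nme2a had 3.64 FPKM in control and 0.44 FPKM in morphant cells at 48 hpf. The most abundant gene of the list, nme2b.1, at 972 to 1997 FPKM, lies in the shared locus of rrm2.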
